A study of Mus musculus with 6 samples.

Results

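The genes described here make, take up and regulate cholesterol in the cell: 31 mouse genes chosen by their known role, with no value as a criterion but with earlier results of these data known, comprising the enzymes of cholesterol synthesis, the SREBP control system, and proteins of cholesterol uptake, transport and storage. Of these, 28 had a transcript cluster (the set of probes that stands for a transcript) with a single gene symbol, among 19938 genes measured in that way. Their RNA was compared between 3 lines of MLE15 cells transduced with lentivirus expressing Nkx2-1-shRNA and 3 lines transduced with the empty pLKO.1 vector, the non-silencing control, with 1 Affymetrix Mouse Gene 1.0 ST array for each line. MLE15 cells come from lung tumors of transgenic mice in which the human surfactant protein C promoter drives the large T antigen of a simian virus, so all 6 lines carry that transgene. All were also selected with puromycin. The shRNA was a mix of 3 hairpins, and the control vector held no hairpin, so that loss of Nkx2-1 and the presence of a hairpin cannot be told apart in this comparison. The labels give a time of 48 h, whereas the methods describe 3 independently transduced stable lines for each group.

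Cholesterol is built in a chain of enzyme steps, first to mevalonate and isoprenoids, then to squalene and lanosterol, and then through a series of sterols in the endoplasmic reticulum. The transcription factors SREBP-1 and SREBP-2 are held in that membrane by Scap and the Insig proteins while sterols are plentiful, and when sterols are scarce they are carried to the Golgi, cut by a pair of proteases and sent to the nucleus, where they turn on the synthesis genes. In the alveolar epithelium cholesterol is a component of surfactant, and Nkx2-1 is the transcription factor that directs surfactant protein genes there.

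All values are log2 values after Robust Multi-Array Analysis (RMA), and each difference is Nkx2-1-shRNA minus empty vector, so that a negative value is a lower level in Nkx2-1-shRNA lines. Nkx2-1 itself was 7.91, 7.98 and 7.83 in Nkx2-1-shRNA lines and 8.61, 8.61 and 8.59 in empty-vector lines, a difference of -0.69 (adjusted p = 0.00155). The median value of an array ran from 5.10 to 5.14 in Nkx2-1-shRNA lines and from 5.18 to 5.21 in empty-vector lines, and arrays correlated at 0.991 to 0.994 within a group and 0.979 to 0.983 between groups. Of all calls, 45.2% were higher in Nkx2-1-shRNA lines, and 59.5% after each array was centred on its median. Of 10 lung epithelial markers 9 lay above a background limit of 4.34, the 95th percentile of 1260 chemosensory receptor transcript clusters. Among the 10, 3 were lower: Nkx2-1, Foxa1 (by 0.85) and Foxa2 (by 0.44). Another 3 were higher, Elf3 (by 0.88), Krt7 (by 0.70) and Krt18 (by 0.44), and 4 did not pass. Of 8 alveolar type II markers Lamp3 and Slc34a2 lay below the limit in both groups. The mean over those 8 markers was 5.80 to 5.90 in Nkx2-1-shRNA lines and 6.21 to 6.38 in empty-vector lines, with 3 of the 8 lower (Sftpa1, Sftpc and Abca3), 2 higher (Napsa by 0.58 and Sftpd by 0.44) and 3 that did not pass. Sftpc, the surfactant protein C gene, lay below the limit at 4.08 in Nkx2-1-shRNA lines, against 7.73 in empty-vector lines, and was the only one of the 8 to differ by more than 1 on the log2 scale. Of 7 leukocyte and 7 endothelial markers, 3 of each lay above the limit in at least 1 group (Cd68, Cd3e and Tyrobp; Tek, Vwf and Cldn5), while Ptprc, Pecam1 and Cdh5, which define these cells, lay below it in both groups. Csf1r, the only leukocyte marker called, was higher by 0.51 in Nkx2-1-shRNA lines, though below the limit in both groups. Of 7 fibroblast markers 4 lay above the limit in both groups (Col1a1, Col1a2, Col3a1 and Pdgfra), and none was called. The mean over 7 endothelial markers was 4.11 to 4.26 in Nkx2-1-shRNA lines and 4.33 to 4.45 in empty-vector lines, with 1 lower (Tek, at 3.77 in Nkx2-1-shRNA lines, below the limit, against 5.77 in empty-vector lines) and 1 higher (Vwf, by 0.41), and the part of this gap in the results on sterol genes was not tested.

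Genes of cholesterol synthesis were lower in Nkx2-1-shRNA cells along nearly the whole chain. Of 17 synthesis genes measured, 14 fell at an adjusted p under 0.05, none rose and 3 did not pass, and all 17 had a difference below 0. In bulk RNA, fewer cells that carry a transcript and less of it per cell cannot be told apart. The 14 that fell were 82.4% of those measured, against 13.9% of the 13587 genes above background in at least 1 group and 9.24% of all 35557 transcript clusters. The median difference was -0.92 over the synthesis genes and -0.0040 over genes above background. Averaged over the 17 genes, the log2 value was 7.91, 7.97 and 7.92 in Nkx2-1-shRNA lines and 8.81, 8.88 and 8.60 in empty-vector lines, so the groups did not overlap. Empty vector replicate 3 was the lowest of its group in 12 of the 17 genes, and the median difference was -1.06 without it. The array medians also differed between the groups, and with each array centred on its median the synthesis median was -0.84, with 12 genes lower.

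**Figure D1:**
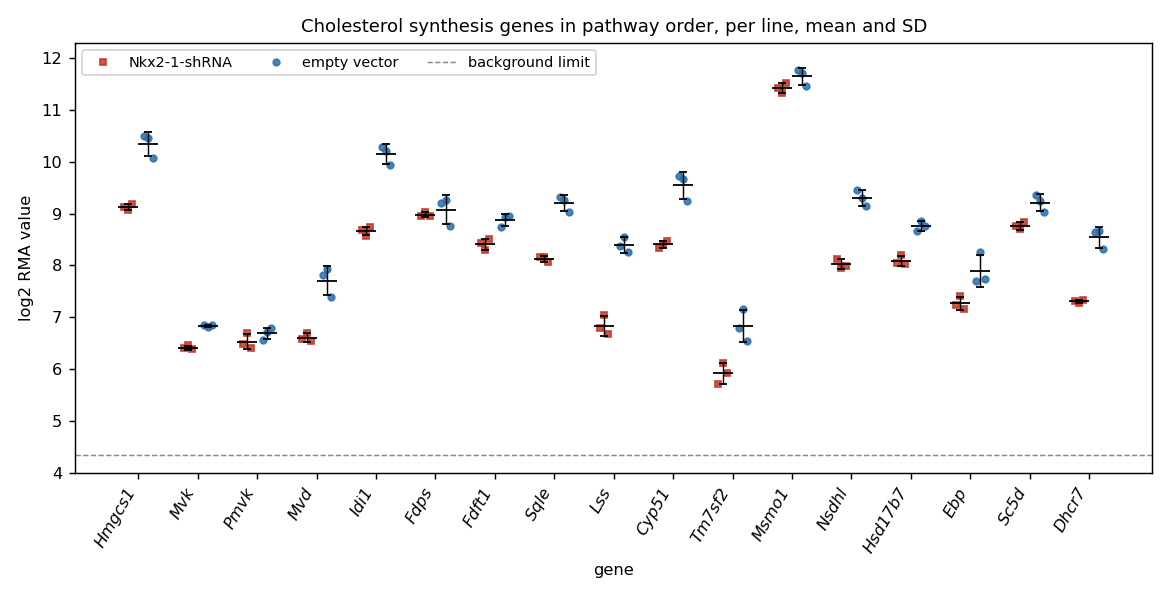
Log2 RMA value (vertical axis) of the 17 measured cholesterol synthesis genes in pathway order (horizontal axis), with red squares for the 3 Nkx2-1-shRNA lines, blue circles for the 3 empty-vector lines, and a black bar with whiskers for each group's mean and SD. The groups are apart in 14 genes (82.4%, against 52.5% of genes above background), and they overlap in Pmvk, Fdps and Msmo1.

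The first steps build mevalonate and the isoprenoid units, and 4 of their 6 measured genes fell. Hmgcs1, the synthase that makes HMG-CoA, was 9.13, 9.07 and 9.18 in Nkx2-1-shRNA lines and 10.49, 10.46 and 10.07 in empty-vector lines. It fell by 1.22 (95% confidence interval of the difference -1.52 to -0.92; adjusted p = 0.00130), to 43.0% of the empty-vector level. Every Nkx2-1-shRNA line lay well below every empty-vector line. Of its 11 measured neighbours on the chromosome (the nearest genes above background, at most 10 on each side) 10 were also below 0, with a median of -0.41, the lowest neighbour median among the members. Acat2, the thiolase of the step before, had no listed transcript cluster.

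Mvk, mevalonate kinase, was 6.40, 6.45 and 6.38 in Nkx2-1-shRNA lines and 6.85, 6.81 and 6.85 in empty-vector lines, and fell by 0.43 (adjusted p = 0.00850). The fall was well beyond the spread within each group, which was at most 0.039 (SD, n = 3), though small beside that of Hmgcs1. The next enzyme was not called: Pmvk, phosphomevalonate kinase, was 6.48, 6.69 and 6.41 in Nkx2-1-shRNA lines and 6.56, 6.71 and 6.79 in empty-vector lines. Its difference was -0.16 with an interval of -0.41 to 0.095 (adjusted p = 0.396), and it was not tested against Mvk. The groups overlapped there. Mvd, the decarboxylase that yields isopentenyl diphosphate, was 6.58, 6.70 and 6.53 in Nkx2-1-shRNA lines and 7.81, 7.93 and 7.38 in empty-vector lines, and fell to 46.6% of the empty-vector level (interval of the log2 difference -1.46 to -0.75, adjusted p = 0.00363).

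Idi1, the isomerase that interconverts the isoprenoid units, had one of the steepest falls of the chain. It was 8.68, 8.58 and 8.74 in Nkx2-1-shRNA lines and 10.29, 10.22 and 9.93 in empty-vector lines, a difference of -1.48 (SE 0.11, adjusted p = 4.17e-04) and 35.9% of the empty-vector level. The other transcript cluster of Idi1 gave -1.45 (adjusted p = 6.64e-04). Fdps, farnesyl diphosphate synthase, closes this stretch, and it was 8.95, 9.03 and 8.96 in Nkx2-1-shRNA lines and 9.21, 9.27 and 8.76 in empty-vector lines. Empty vector replicate 3 lay below all Nkx2-1-shRNA lines in Fdps, and the difference of -0.097 did not pass (interval -0.43 to 0.24, adjusted p = 0.720). It was -0.26 without empty vector replicate 3 (adjusted p = 0.0929), -0.0021 without replicate 2 and -0.033 without replicate 1 of that group, with adjusted p up to 0.996 over all alternatives.

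From squalene onwards 10 of 11 genes fell. Lss, lanosterol synthase, which closes the sterol rings, had the largest difference of the members: 6.79, 7.04 and 6.67 in Nkx2-1-shRNA lines and 8.37, 8.55 and 8.26 in empty-vector lines. It fell by 1.56 (interval of the difference -1.86 to -1.26, adjusted p = 4.82e-04), to 33.9% of the empty-vector level. Sqle, squalene epoxidase, the step just before, was 8.15, 8.17 and 8.06 in Nkx2-1-shRNA lines and 9.33, 9.26 and 9.04 in empty-vector lines, and fell by 1.08 (adjusted p = 7.90e-04). Neither gene had overlapping groups. Fdft1, squalene synthase, fell by less. It averaged 8.41 ± 0.10 in Nkx2-1-shRNA lines and 8.87 ± 0.11 in empty-vector lines (SD, n = 3 each), a difference of -0.46 (adjusted p = 0.0194), and its other transcript cluster gave -0.53 (adjusted p = 0.0115). The call on Fdft1 was lost without Nkx2-1-shRNA replicate 1 (adjusted p = 0.0658) or 2 (0.0664) and without empty vector replicate 2 (0.0627) or 3 (0.0552). It was also lost under the methods' t-test (0.0542), with a highest adjusted p over all alternatives of 0.0664 and a lowest of 0.00435.

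Cyp51, the demethylase that acts on lanosterol, was 8.33, 8.42 and 8.47 in Nkx2-1-shRNA lines and 9.73, 9.67 and 9.25 in empty-vector lines, and fell by 1.14 (adjusted p = 0.00236). Tm7sf2, the sterol reductase that follows it, averaged 5.91 ± 0.21 in Nkx2-1-shRNA lines and 6.83 ± 0.30 in empty-vector lines (SD, n = 3 each), a fall of 0.92 (adjusted p = 0.0145). The Tm7sf2 call was lost without Nkx2-1-shRNA replicate 1 (0.0525) and under the methods' t-test (0.0806), within a range of 0.00134 to 0.0806 over all alternatives. Msmo1, the methyl-sterol monooxygenase of the next step, was 11.43, 11.32 and 11.52 in Nkx2-1-shRNA lines and 11.77, 11.71 and 11.47 in empty-vector lines. Its difference of -0.23 did not pass (interval -0.48 to 0.029, adjusted p = 0.221). It was -0.32 without empty vector replicate 3 (adjusted p = 0.0847), with adjusted p of 0.0847 to 0.446 over all alternatives. Msmo1 was not tested against the steps around it. Both partners of Msmo1 in removing the methyl groups fell. Nsdhl, the dehydrogenase, was 8.13, 7.95 and 7.99 in Nkx2-1-shRNA lines and 9.46, 9.31 and 9.14 in empty-vector lines (difference -1.28, adjusted p = 5.64e-04). Hsd17b7, the ketoreductase, averaged 8.09 ± 0.099 in Nkx2-1-shRNA lines and 8.76 ± 0.093 in empty-vector lines (difference -0.66, adjusted p = 0.00384).

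The last steps rearrange the double bonds of the sterol. Dhcr7, the reductase that ends one branch of the chain, was 7.32, 7.27 and 7.33 in Nkx2-1-shRNA lines and 8.64, 8.67 and 8.31 in empty-vector lines, and fell by 1.23 (adjusted p = 7.64e-04) to 42.6% of the empty-vector level. The 3 Nkx2-1-shRNA lines lay close together and far below the others. Ebp, the sterol isomerase, averaged 7.27 ± 0.13 in Nkx2-1-shRNA lines and 7.89 ± 0.31 in empty-vector lines (SD, n = 3 each). Sc5d, the sterol desaturase, averaged 8.76 ± 0.070 in Nkx2-1-shRNA lines and 9.21 ± 0.16 in empty-vector lines. Both fell by small margins: Ebp by 0.62 (adjusted p = 0.0428) and Sc5d by 0.45 (adjusted p = 0.0278). The Ebp call was lost without any 1 Nkx2-1-shRNA line (adjusted p = 0.122, 0.0731 and 0.122 without replicates 1, 2 and 3) and without empty vector replicate 3 (0.0615). It was also lost under the methods' t-test (0.143) and median centring (0.0783), within a range of 0.00833 to 0.143 over all alternatives. The Sc5d call was lost without any 1 Nkx2-1-shRNA line (0.0908, 0.0914 and 0.0586) and without empty vector replicate 1 (0.0745) or 2 (0.0801). It was also lost under the methods' t-test (0.0768), median centring (0.0562) and the replicate block (0.0667), within a range of 0.00671 to 0.0914.

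**Figure D2:**
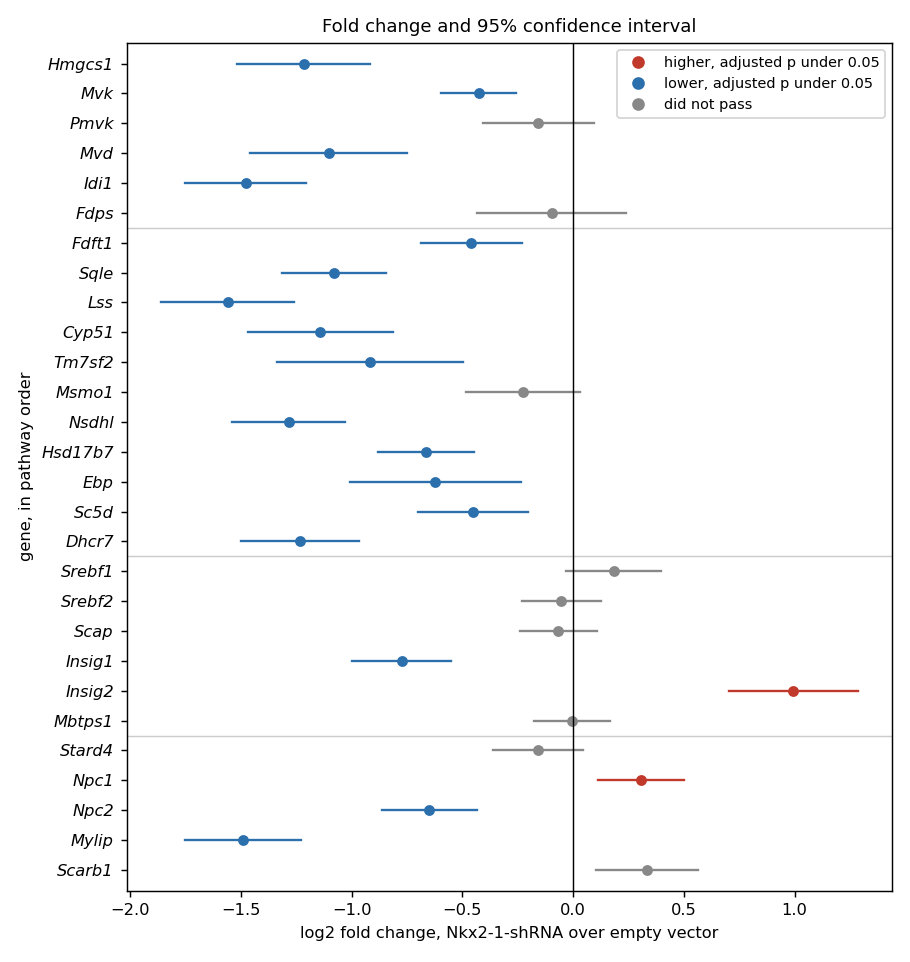
Log2 fold change of Nkx2-1-shRNA over empty vector (horizontal axis) with its 95% confidence interval for the 28 measured genes in pathway order from top to bottom, in red where higher, blue where lower and grey where the adjusted p was not under 0.05; grey lines part the mevalonate steps, sterol steps, SREBP control, and uptake, transport and storage. The synthesis genes lie left of 0, Lss farthest at -1.56, whereas the control genes spread from Insig1 at -0.77 to Insig2 at 0.99.

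Over all 28 measured genes 17 fell, 2 rose and 9 did not pass. The risers were 7.14% of the 28, against 15.3% of genes above background and 7.61% of all transcript clusters. All 28 lay above the background limit in both groups, and the groups did not overlap in 22 (78.6%), 18 of them lower, against 52.5% of genes above background. The median difference was -0.54. The study's own stricter threshold (adjusted p below 0.0005, absolute log2 difference above 0.6) was applied to the limma fit described below. It was passed there by 3 genes, Idi1, Lss and Mylip. They are 10.7% of the measured genes, against 2.75% of genes above background (374 of 13587). The paper used another test, and shows Nkx2-1 under an adjusted p below 0.0005. In the limma fit Nkx2-1 did not pass (adjusted p = 0.00155), so the 3 genes cannot be read as the paper's own result. The count of 3 moved with the processing: it was 0 with any 1 of the 6 lines left out, and 13 with the test limited to clusters that carry a single symbol. Of the 19 genes called at an adjusted p under 0.05, 14 kept the call under all 15 alternatives, the exceptions being Fdft1, Tm7sf2, Ebp, Sc5d and Npc1.

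The SREBP control genes did not move as a block: of 6 measured, 1 fell, 1 rose and 4 did not pass, with a median of -0.030. The 16.7% in each direction lay near the 13.9% lower and 15.3% higher of genes above background. The pair that moved were the Insig genes, whose proteins both hold Scap in the endoplasmic reticulum. Insig1, itself a known SREBP target, was 9.40, 9.45 and 9.39 in Nkx2-1-shRNA lines and 10.18, 10.34 and 10.05 in empty-vector lines, and fell by 0.77 (SE 0.095, adjusted p = 0.00246). Insig2, which is known to respond little to SREBP, was 9.75, 9.60 and 9.62 in Nkx2-1-shRNA lines and 8.85, 8.71 and 8.43 in empty-vector lines. It rose by 0.99 (interval 0.70 to 1.28, adjusted p = 0.00253), to 199% of the empty-vector level. Neither gene had overlapping groups, and the genes ran in opposite directions. The log2 value of Insig2 minus that of Insig1 within an array was 0.35, 0.15 and 0.23 in Nkx2-1-shRNA lines and -1.33, -1.63 and -1.62 in empty-vector lines. The shift of 1.77 between the groups stays the same when an array is shifted as a whole. Its exact two-sided permutation p was 0.1, the smallest that the 20 assignments of 3 and 3 lines allow. With both genes already apart in opposite directions this p had to be 0.1, so it adds nothing to the 2 calls.

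**Figure D3:**
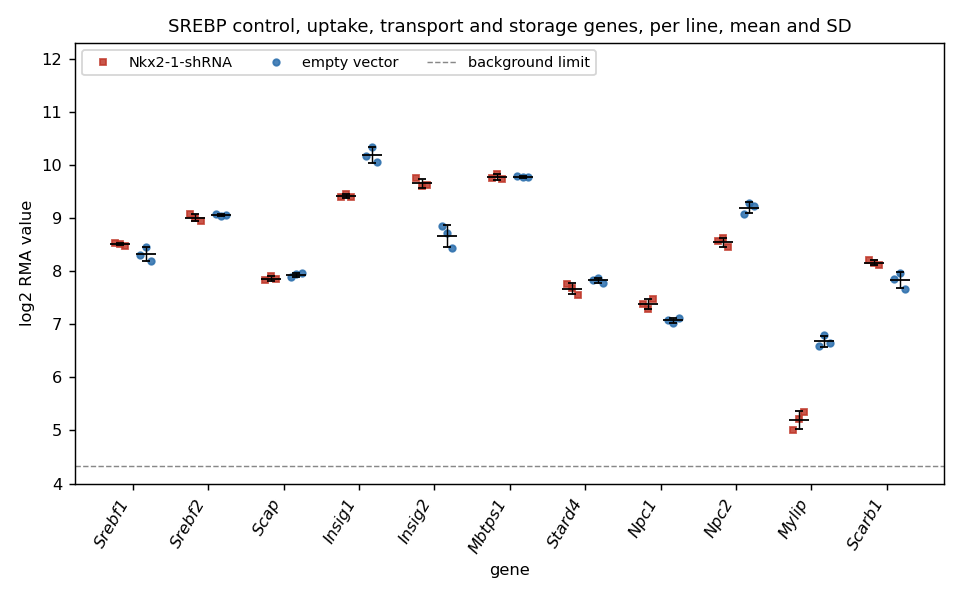
Log2 RMA value (vertical axis) of the 11 measured genes of SREBP control and of cholesterol uptake, transport and storage, drawn as for the synthesis genes, with red squares for Nkx2-1-shRNA lines, blue circles for empty-vector lines, and mean and SD in black. Insig1 and Insig2 part in opposite directions, Mylip falls to 5.19 in Nkx2-1-shRNA lines, and Srebf2, Scap and Mbtps1 overlap between the groups.

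The genes of the SREBPs themselves and of their escort and protease did not pass the test. Srebf1, which encodes SREBP-1, was 8.52, 8.51 and 8.48 in Nkx2-1-shRNA lines and 8.30, 8.46 and 8.20 in empty-vector lines. The groups did not overlap, but the difference of 0.18 had an interval of -0.030 to 0.40 (adjusted p = 0.235). Srebf2, which encodes SREBP-2, the main activator of cholesterol synthesis genes, was 9.07, 8.99 and 8.94 in Nkx2-1-shRNA lines and 9.07, 9.03 and 9.06 in empty-vector lines, a difference of -0.053 (interval -0.23 to 0.12, adjusted p = 0.708). Srebf2 minus Srebf1 within an array was 0.55, 0.49 and 0.46 in Nkx2-1-shRNA lines and 0.77, 0.58 and 0.86 in empty-vector lines, a shift of -0.24 (exact two-sided permutation p = 0.1, again the smallest possible). Scap, the sterol-sensing escort, differed by -0.067 (interval -0.24 to 0.11, adjusted p = 0.621). Mbtps1, the protease that makes the first cut, differed by -0.0057 (interval -0.18 to 0.17, adjusted p = 0.973). With each array centred on its median, the signs of Srebf2, Scap and Mbtps1 turned, and none passed the test either way. The second protease gene, Mbtps2, shares its transcript cluster with Yy2 and is given no value.

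Among the 5 measured genes of uptake, transport and storage 2 fell, 1 rose and 2 did not pass, with a median of -0.16. These are 40.0% lower and 20.0% higher of only 5 genes, against 13.9% and 15.3% of genes above background. Mylip, an E3 ubiquitin ligase that sends lipoprotein receptors for degradation and is a known target of the liver X receptors, was 5.01, 5.22 and 5.34 in Nkx2-1-shRNA lines and 6.60, 6.80 and 6.65 in empty-vector lines. It fell by 1.49 (SE 0.11, adjusted p = 3.70e-04), to 35.6% of the empty-vector level. Npc2, the soluble lysosomal cholesterol carrier, was 8.56, 8.62 and 8.45 in Nkx2-1-shRNA lines and 9.08, 9.28 and 9.23 in empty-vector lines, and fell by 0.65 (adjusted p = 0.00401). Of the 20 neighbours of Npc2 on the chromosome, 16 were also below 0, with a median of -0.27. Npc1, the lysosomal membrane protein that works with Npc2, went the other way: 7.37, 7.29 and 7.47 in Nkx2-1-shRNA lines and 7.08, 7.03 and 7.11 in empty-vector lines, a rise of 0.31 (interval 0.11 to 0.50, adjusted p = 0.0463). That call was lost whichever line was left out, at adjusted p of 0.134, 0.0658 and 0.142 without Nkx2-1-shRNA replicates 1, 2 and 3 and of 0.104, 0.123 and 0.0719 without empty vector replicates 1, 2 and 3, within a range of 0.0171 to 0.142 over all alternatives.

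Scarb1, a receptor for high-density lipoprotein, was 8.21, 8.16 and 8.12 in Nkx2-1-shRNA lines and 7.85, 7.97 and 7.67 in empty-vector lines. The groups did not overlap, but the difference of 0.33 did not pass (interval 0.10 to 0.57, adjusted p = 0.0611; 0.0247 to 0.180 over all alternatives, under 0.05 in 5 of 15). Stard4, a cytosolic sterol carrier and known SREBP target, was 7.76, 7.68 and 7.55 in Nkx2-1-shRNA lines and 7.83, 7.87 and 7.78 in empty-vector lines, a difference of -0.16 (interval -0.36 to 0.043, adjusted p = 0.276). The 2 groups lay side by side without overlap. Soat1, which esterifies cholesterol for storage, had no listed transcript cluster.

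Promoter sequence, which the choice of genes did not use, was read for the 25 members in the RefSeq promoter table (build GRCm38.p6). The 250 bases before each start were searched on both strands for CACCCCAC (a core of the sterol regulatory element), CCAAT (the box bound by NF-Y, a factor known to act with SREBPs) and CACGTG (an E-box, to which SREBPs can also bind). CCAAT lay in 14 of 15 synthesis genes (93.3%), against 39.4% of genes above background and 37.5% of all genes in the table; by promoter the shares were 77.8% of 18 and 33.8% of all 32851. The other members held it in 7 of 10 genes. CACCCCAC was rarer, in 2 of the 25 genes (Hmgcs1 and Acat2). That is 6.06% of the members' 33 promoters, against 2.9% of promoters of genes above background and 2.58% of all promoters. CACGTG was in 5 genes (Dhcr7, Hsd17b7, Insig1, Sc5d and Scap), or 15.2% of promoters, against 8.08% and 6.02%. Every member that fell and was in the promoter table held CCAAT. The box was also present in Pmvk, Msmo1, Srebf1 and Srebf2, which did not pass the test, and in Insig2, which rose. Whether a match goes with the direction of change was not tested.
Shown are the promoter windows of the 3 genes past the study's threshold, the sterol element of Hmgcs1, and 1 match in each Insig gene. Capitals mark the match (ATTGG is CCAAT on the opposite strand), and each sequence runs 5′ to 3′ along the strand of its gene; the Insig2 window holds a further ATTGG in lower case.
Hmgcs1, chr13:119690195-119690242, plus strand, CACCCCAC at bases -136 to -129 from the start: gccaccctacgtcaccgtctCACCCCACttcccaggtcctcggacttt
Idi1, chr13:8885541-8885585, plus strand, bases -45 to -41: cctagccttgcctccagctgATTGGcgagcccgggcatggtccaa
Lss, chr10:76531523-76531567, plus strand, bases -62 to -58: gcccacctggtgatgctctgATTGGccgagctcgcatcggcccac
Mylip, chr13:45389655-45389699, plus strand, bases -67 to -63: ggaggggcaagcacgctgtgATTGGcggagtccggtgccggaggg
Insig1, chr5:28071291-28071336, plus strand, CACGTG at bases -101 to -96: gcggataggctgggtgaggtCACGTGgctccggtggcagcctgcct
Insig2, chr1:121332594-121332638, minus strand, bases -29 to -25: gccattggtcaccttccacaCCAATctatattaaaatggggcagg

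Genes adjoining the pathway, in lists drawn by function, showed no such uniform fall. Of 14 genes that use isoprenoids 3 rose and 2 fell (median -0.041), and the same counts held for 14 genes of sterol sensing and protein degradation at the endoplasmic reticulum (median 0.10). In both lists 21.4% were higher and 14.3% lower, near the 15.3% and 13.9% of genes above background. In the first, Coq2, a prenyltransferase of coenzyme Q synthesis, rose by 0.80 (adjusted p = 0.00131), and Pdss2 and Nus1, which help build the coenzyme Q side chain and dolichol, fell by 0.56 and 0.42. In the second, Erlin1, a membrane protein that takes part in sterol-regulated degradation, rose by 0.54, while Lpin1, a phosphatidate phosphatase, fell by 0.67 and Vcp, the ATPase that extracts proteins for degradation, fell by 0.44. The Nus1 call was lost without Nkx2-1-shRNA replicate 3 (adjusted p = 0.0536), and the Vcp call without Nkx2-1-shRNA replicate 1 (0.0568) or 3 (0.0507). The Lpin1 call was lost under the methods' t-test (0.0506; 0.00109 to 0.0506 over all alternatives). Of 15 fatty acid genes under SREBP-1, 13 of them above background, 5 fell and 1 rose (median -0.031), which is 33.3% lower and 6.67% higher, against 13.9% and 15.3% of genes above background. The 3 largest falls were in Acss2 (by 1.07), which makes acetyl-CoA from acetate, Fads2 (by 0.76), a fatty acid desaturase, and Acly (by 0.63), which makes acetyl-CoA from citrate.

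Sterol carriers and lipoprotein receptors were mostly higher: 8 of 13 rose and 2 fell, with a median of 0.41, so that 61.5% rose against 15.3% of genes above background. Gramd1b, which carries plasma membrane cholesterol to the endoplasmic reticulum, averaged 7.23 ± 0.14 in Nkx2-1-shRNA lines and 4.88 ± 0.061 in empty-vector lines (SD, n = 3 each), a rise of 2.35 (adjusted p = 6.42e-05). Vldlr, a lipoprotein receptor known as a target of the Mylip ligase, rose by 1.27 (adjusted p = 6.56e-04), and Lrp8, another receptor of that family and also a known Mylip target, fell by 0.74 (adjusted p = 8.38e-04). Of 13 genes of liver X receptor signalling, efflux and oxysterols, 9 of them above background, 3 rose and 1 fell (23.1% and 7.69%, against 15.3% and 13.9% of genes above background). The risers were Cyp39a1, an oxysterol hydroxylase (1.23), Sult2b1, a sulfotransferase for cholesterol (1.08), and Rxra, the partner of the liver X receptors (0.36), whose call was lost without Nkx2-1-shRNA replicate 1 (adjusted p = 0.0612) or 3 (0.0552). The Sult2b1 call was lost under the methods' t-test (0.0629; 5.82e-04 to 0.0629 over all alternatives).

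**Figure D4:**
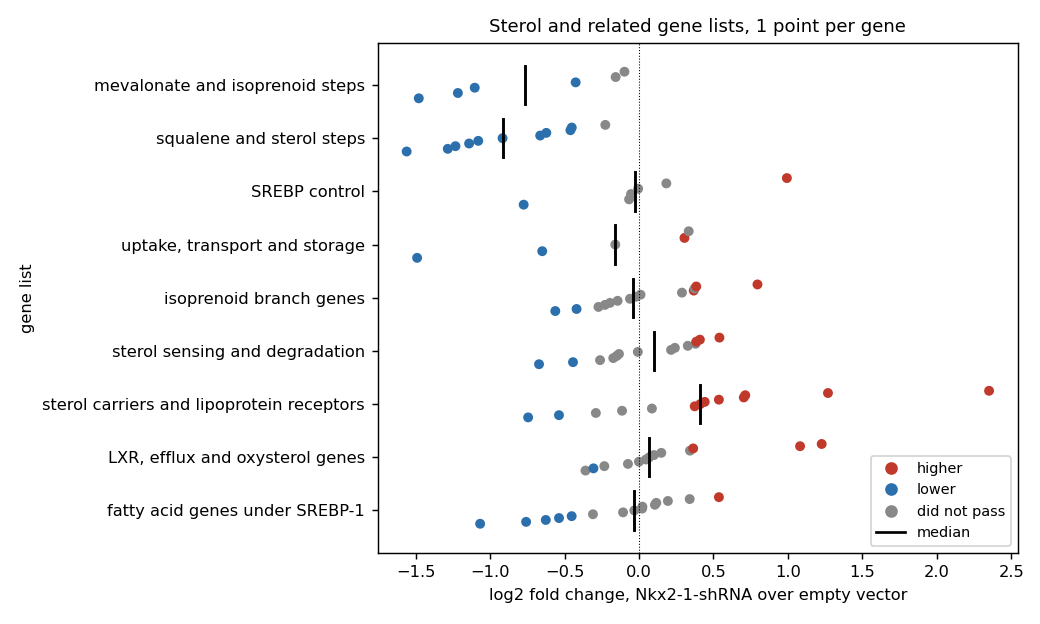
Log2 fold change of Nkx2-1-shRNA over empty vector (horizontal axis) for each measured gene of 9 lists (rows, 1 point per gene), with the median of each list as a black bar, red for genes that were higher, blue for lower and grey for those that did not pass an adjusted p of 0.05. Both synthesis lists lie left of 0 with medians of -0.76 and -0.92, and the sterol carriers and lipoprotein receptors have a median of 0.41.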

How the data were processed

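The authors hybridized RNA of 6 MLE15 lines and, per the methods and the submitters' processing notes, summarized the arrays in Affymetrix Expression Console 1.1 by RMA (background correction, quantile normalization, probe summary). The deposited log2 values were taken without further scaling. A gene was a transcript cluster with 1 symbol; where a gene had several, its brightest on average stood for it. The test of differences was limma 3.58.1 in R 4.3.3 (lmFit, eBayes, default prior, no block), with Benjamini-Hochberg adjustment over 35557 transcript clusters. The code was tested on simulated data. Arrays give no counts, so their number limits the precision.

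Members and gene lists were chosen with earlier results of these data known. All 31 members are named; of each other list, at most the 3 largest differences at an adjusted p under 0.05. Neighbours follow RefSeq gene order. Alternatives were the methods' t-test, a trended and robust prior, array weights, median centring, repeated quantile normalization, transcript clusters above background or with 1 symbol, the mean over transcript clusters, the replicate number as a block, and each line left out. Other genes of the pathway were not analysed here.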

Additional observations from a re-analysis of the deposited data

How the results depend on the processing

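All 17 synthesis genes stayed below 0 under all 15 alternatives, and no called member changed sign. The methods' t-test, the trended prior, the replicate block and both restricted sets of transcript clusters keep each difference as it was. No sign could change in those settings. Against 17 members lower, 2 higher and 3 at the study's threshold, the methods' t-test gave 13, 1 and 0 (Fdft1, Tm7sf2, Ebp, Sc5d and Npc1 lost). The replicate block gave 16, 1 and 0 (Sc5d and Npc1 lost). Same-numbered lines deviated with correlations of 0.088, 0.22 and -0.055, so the numbers were not taken as pairs; Nkx2-1-shRNA replicate 3 correlated best with empty vector replicate 1. The count at the study's threshold was 6 with the trended prior, with array weights and with transcript clusters above background, 13 with transcript clusters of 1 symbol, 2 with median centring, 4 with repeated quantile normalization and 1 with the mean over a gene's transcript clusters. Median centring lost the calls on Ebp and Sc5d, gained Scarb1 as higher, and gave a median of the members of -0.46. Leaving out 1 line gave 13 to 16 lower, 1 higher and 0 at the study's threshold each time, and medians of -0.62 to -0.44, with -0.44 without empty vector replicate 2. Each result rests on 3 lines a group, with a median SD within a group of 0.099 over genes above background. All 28 measured members lay above the background limit in both groups.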
